A study of Arabidopsis thaliana with 9 samples.

Results

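The comparison described here set albino seedlings of the Arabidopsis thaliana mutant 2cpab against green seedlings of the same mutant. All rows of the deposited expression table whose scaled FPKM reached 1 in 3 or more of the 9 libraries entered, 19731 of 32833, and 6 of the 9 libraries carried the comparison, 3 of each phenotype. The other 3 libraries were wild-type (Col-0) seedlings, and their levels are given beside some of the differences only. All seedlings were 6 days old and had grown on MS medium with 0.5% sucrose under constant illumination at 125 µE m-2 s-1. The mutant is labelled by its name, so the alleles and the way green and albino seedlings were sorted are not given in the sources used here. Poly(A) RNA was sequenced. Whether the replicates are separate cultures is not labelled, so each p-value reflects only the spread among these libraries, which may be technical. In bulk seedling samples, fewer cells of a type and less RNA per cell cannot be told apart.

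The targeted genes, 2CPA and 2CPB, are nuclear genes of the 2-Cys peroxiredoxins of the chloroplast. These thiol enzymes reduce hydrogen peroxide and take electrons from NADPH-dependent and ferredoxin-dependent thioredoxin systems. A chloroplast is built from proteins of which most are encoded in the nucleus, and an albino seedling lacks chlorophyll and thus a working photosynthetic apparatus. Plastids that fail to develop are known to alter the transcription of nuclear photosynthesis genes through retrograde signals.

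Levels are given as scaled FPKM, the deposited value with its logarithm undone, and differences as log2(scaled FPKM + 1) of albino minus green with their standard error. That scale understates the differences of weakly expressed genes. Every library had been scaled to the same upper quartile, with factors of 0.781 to 0.792 in the albino and 0.953 to 1.12 in the green libraries. When this scaling was undone, the median difference of all tested genes moved from 0.05 to 0.39, so small differences depend on the scale. Among the green libraries replicate 1 was the one most like the albino libraries. Its correlation with them over the tested genes was 0.931 to 0.937, while that of green replicates 2 and 3 was 0.898 to 0.911. The files used hold no read totals, so depth is unknown.

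Albino seedlings held less RNA of both targeted genes than green ones. 2CPA (AT3G11630, chromosome 3, 3672036 to 3674159 on the plus strand of TAIR10.1) stood at 35.8, 267 and 256 in green replicates 1 to 3 and at 24.2, 21.4 and 25.4 in the albino replicates. 2CPB (AT5G06290, chromosome 5, 1919080 to 1921425 on the plus strand) stood at 7.21, 48.7 and 54.2 in green and at 1.82, 2.89 and 1.52 in albino seedlings. The groups did not overlap, but green replicate 1 lay close to the albino libraries in both genes. The difference was -2.47 ± 0.62 for 2CPA (adjusted p = 0.0115) and -3.22 ± 0.60 for 2CPB (adjusted p = 0.00231). Without green replicate 1 these became -3.42 and -4.11. Given green replicate 1 alone as the green group they were -0.58 (adjusted p = 0.0654, which ends the call of 2CPA) and -1.44, and over all alternatives the adjusted p of 2CPA ran from 4.12e-06 to 0.0654. The wild-type mean was 880.4 for 2CPA, and both genes were far lower in every mutant library.

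Between albino and green seedlings 3648 genes were higher and 3483 lower at adjusted p < 0.05, which is 18.5% and 17.7% of the genes tested. Every list count in this report is to be read beside these 2 shares. Folds here are 2 to the power of the difference in log2(scaled FPKM + 1), and on that scale the lower genes reached further. Of genes called at a difference of at least 4-fold, 343 were lower and 85 higher (1.74% and 0.431% of those tested). Past 16-fold, 22 were lower and 0 higher. That scale understates folds wherever a group is near 0, in either direction, and its part in this contrast was not tested. PBS3 rose from a mean of 0.146 to 4.66 and counts as 4.97-fold. HSP21 fell from 28.7 to 0.809 and counts as 15.9-fold. All 3 albino values lay below all 3 green values for 4693 genes (23.8%) and above them for 5818 genes (29.5%). The split depended on the scaling. With the deposited scaling undone 11073 genes were higher and 1997 lower, with TPM 11859 and 1839, and with a common sum that leaves organelle genes out 11947 and 1835. Median-of-ratios scaling gave 3091 and 3768. Calls present under every one of the 24 settings numbered 782 higher and 1283 lower. At least 2-fold differences were called higher for 3.23% and lower for 6.63% of genes, and any difference for 36.1%. Against the wild type 43.5% of tested genes were called for albino seedlings (23.4% higher, 20.1% lower) and 8.87% for green seedlings (3.71% higher, 5.16% lower).

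**Figure D1:**
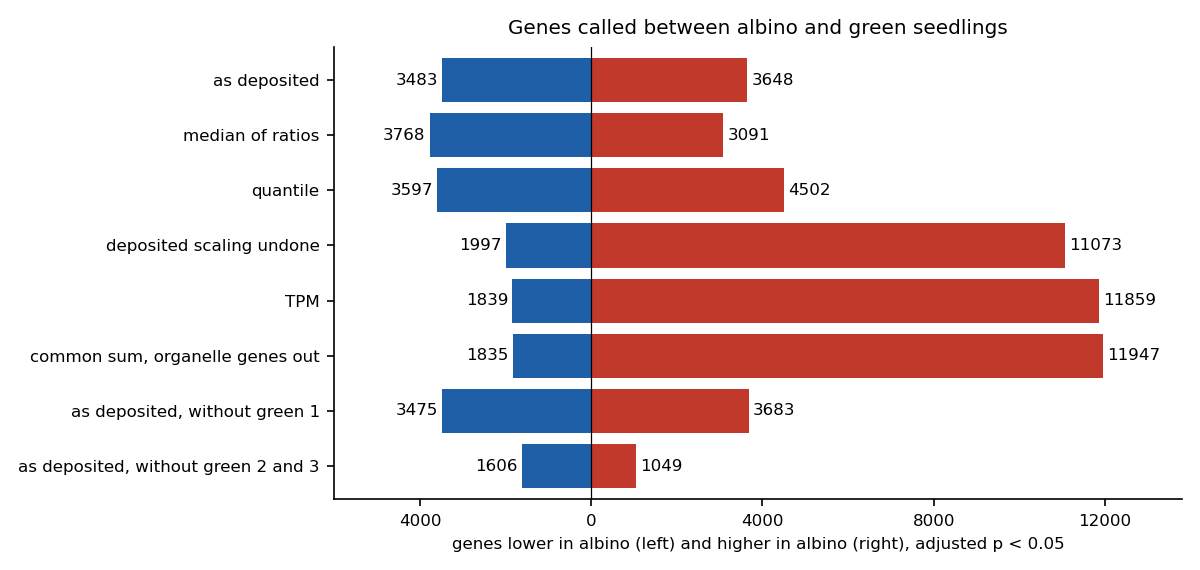
Number of genes called lower (blue, to the left) and higher (red, to the right) in albino than in green 2cpab seedlings at adjusted p < 0.05, for the deposited scale, 5 other scalings and 2 subsets of the green libraries. The bars to the right reach 11073 to 11947 genes in the 3 settings that do not equalise the bulk of genes, against 3648 on the deposited scale, and the bars to the left shrink to 1835 to 1997.

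The listed nuclear genes of light harvesting and of both photosystems were lower in albino seedlings without exception among those tested. Photosystem subunits encoded in the plastid are not in these lists. All 20 tested light-harvesting genes fell, with a median difference of -3.16, and all 34 nuclear photosystem and electron-transport genes fell, with a median of -2.65 against 0.05 over all genes. LHCB2.3 (AT3G27690, chromosome 3, 10255906 to 10257489 on the plus strand), an antenna protein of photosystem II, had the largest fall of any called gene. It stood at 354, 487 and 422 in green and at 9.65, 8.67 and 6.68 in albino seedlings. That is a difference of -5.50 ± 0.27 (adjusted p = 2.9e-06), and the green libraries lay far above the albino ones and close to the wild-type mean of 502.

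Other antenna genes followed. LHCB1.4 was at 1537, 1994 and 1653 in green and at 53.8, 66.0 and 61.5 in albino seedlings (-4.81 ± 0.23, adjusted p = 2.9e-06). LHCB1.2 and LHCB1.1 fell by 4.2 ± 0.19 and 3.97 ± 0.22, but these copies are nearly identical and reads may have been split between them. The photosystem I subunits PSAH2, PSAL, PSAG and PSAE1 led their list and fell by 3.0 to 3.19. Light-harvesting genes together took 5.59 ± 0.359% of the summed FPKM in green and 0.807 ± 0.0572% in albino libraries (SD, n = 3 each, exact two-sided permutation p = 0.1, the smallest that 3 against 3 allows). Nuclear photosystem and electron-transport genes took 6 ± 0.634% and 1.33 ± 0.0841% (exact permutation p = 0.1). These shares do not depend on the library scaling. Against the wild type the median of the light-harvesting list was -0.20 in green and -3.42 in albino seedlings.

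Genes of carbon fixation fell by as much. Of 23 tested Calvin-Benson genes 20 were lower and 1 higher (3 higher on unscaled values), with a median of -2.82, and all 12 genes of photorespiration were lower, with a median of -2.35. RBCS2B (AT5G38420, chromosome 5, 15380907 to 15382071 on the minus strand), a small subunit of Rubisco, stood at 2614, 5629 and 4245 in green and at 170.3, 139 and 107 in albino seedlings. Its difference was -4.85 ± 0.29 (adjusted p = 5.35e-06). The most abundant small subunit, RBCS1A, went from 13838, 24839.7 and 19189 to 2068, 1618 and 1672 (-3.40 ± 0.28, adjusted p = 2.12e-05). RBCS1B and RBCS3B fell by 4.05 and 4.02, and these neighbours of RBCS2B are similar enough in sequence for reads to be split. The carbonic anhydrase CA1, which interconverts carbon dioxide and bicarbonate, was at 953, 1532 and 1373 against 54.3, 39.6 and 35.9 (-4.86 ± 0.22, adjusted p = 2.37e-06). In each of these genes every green library lay far above every albino library.

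The photorespiratory cycle recovers carbon from the oxygenase product of Rubisco and runs through chloroplasts, peroxisomes and mitochondria. SHM1, the mitochondrial serine hydroxymethyltransferase, fell by 2.76 ± 0.17, GOX1, a glycolate oxidase, by 2.73 ± 0.19, and GLDP1 of the glycine decarboxylase by 2.65 ± 0.19. The plastid envelope gene LrgB, whose product carries glycolate and glycerate, went from 95.2, 115 and 135 to 15.8, 14.8 and 12.5. The peroxisomal malate dehydrogenase PMDH2 fell by 2.27 ± 0.17. The Calvin-Benson member that was higher was CP12-3, which like TRXY1 and FIT below was named after its values were seen, at 9.78, 11 and 9.32 in green and 15.4, 14.3 and 16.3 in albino libraries (0.57 ± 0.14, adjusted p = 0.00888), a call lost with green replicate 1 alone.

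Promoters were read from the TAIR10.1 genome as the 250 bases before each annotated start, -250 to -1, for 19620 tested nuclear genes. Searched were CACGTG, the G-box, and GATAAG, the I-box core, both known from light-regulated promoters, the sequence GAANNTTC, the core of heat-shock elements, the W-box core TTGAC, the copper-response core GTAC, the drought-response core CCGAC and the evening element AAAATATCT, each on both strands. Of genes called lower by at least 4-fold, 14.3% of 343 held CACGTG and 18.1% held GATAAG, against 7.52% and 12.4% of all tested promoters. Of those called higher by at least 4-fold, 5.06% and 13.9% of 79 did. Among all called genes the shares were 8.7% and 14.1% for lower, and 7.96% and 13.4% for higher genes. The shares among all called lower, all called higher and all tested genes were 43.9%, 47.9% and 44.9% for the W-box core, 35.3%, 34.7% and 34.7% for the copper-response core, and 12.3%, 12.8% and 13% for the drought-response core. They were 2.53%, 2.66% and 2.44% for the evening element and 10.7%, 9.21% and 9.27% for GAANNTTC. In the sets past 4-fold, lower and then higher, they were 42.3% and 48.1% for the W-box core, 35% and 39.2% for the copper-response core, 9.04% and 17.7% for the drought-response core, 2.92% and 5.06% for the evening element, and 10.5% and 15.2% for GAANNTTC. The higher of these sets has 79 promoters, so that 5.06% stands for 4 of them. A match is a run of letters and not a shown site, and 31.9% of the windows reach into another annotated gene.

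The 3 promoters below belong to strongly lower photosynthesis genes and were picked because they hold these motifs. Matches to CACGTG and GATAAG (or its reverse complement CTTATC) are in capitals. The RBCS2B window (chr5:15382072-15382321, minus strand) holds GATAAG at -146 and -94, its reverse complement at -115, and CACGTG at -123. The LHCB2.3 window (chr3:10255656-10255905, plus strand) holds CACGTG at -88, and the window of CAO (chr1:16851272-16851521, minus strand), the chlorophyll b synthase described below, holds it at -52 and -32.
RBCS2B: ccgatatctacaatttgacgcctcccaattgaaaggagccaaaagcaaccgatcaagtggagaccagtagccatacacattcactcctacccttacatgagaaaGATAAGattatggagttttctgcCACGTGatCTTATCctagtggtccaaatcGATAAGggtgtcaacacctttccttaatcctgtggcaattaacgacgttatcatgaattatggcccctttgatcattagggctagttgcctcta
LHCB2.3: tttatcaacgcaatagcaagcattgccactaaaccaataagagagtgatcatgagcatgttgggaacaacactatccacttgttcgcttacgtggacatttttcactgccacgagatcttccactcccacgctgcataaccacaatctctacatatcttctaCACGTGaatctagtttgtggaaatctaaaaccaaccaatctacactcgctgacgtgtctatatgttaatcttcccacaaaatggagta
CAO: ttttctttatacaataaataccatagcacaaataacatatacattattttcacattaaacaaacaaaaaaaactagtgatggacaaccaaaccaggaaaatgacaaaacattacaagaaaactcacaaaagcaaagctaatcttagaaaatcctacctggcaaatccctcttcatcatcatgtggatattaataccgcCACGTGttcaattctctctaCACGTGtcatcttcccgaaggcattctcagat

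**Figure D2:**
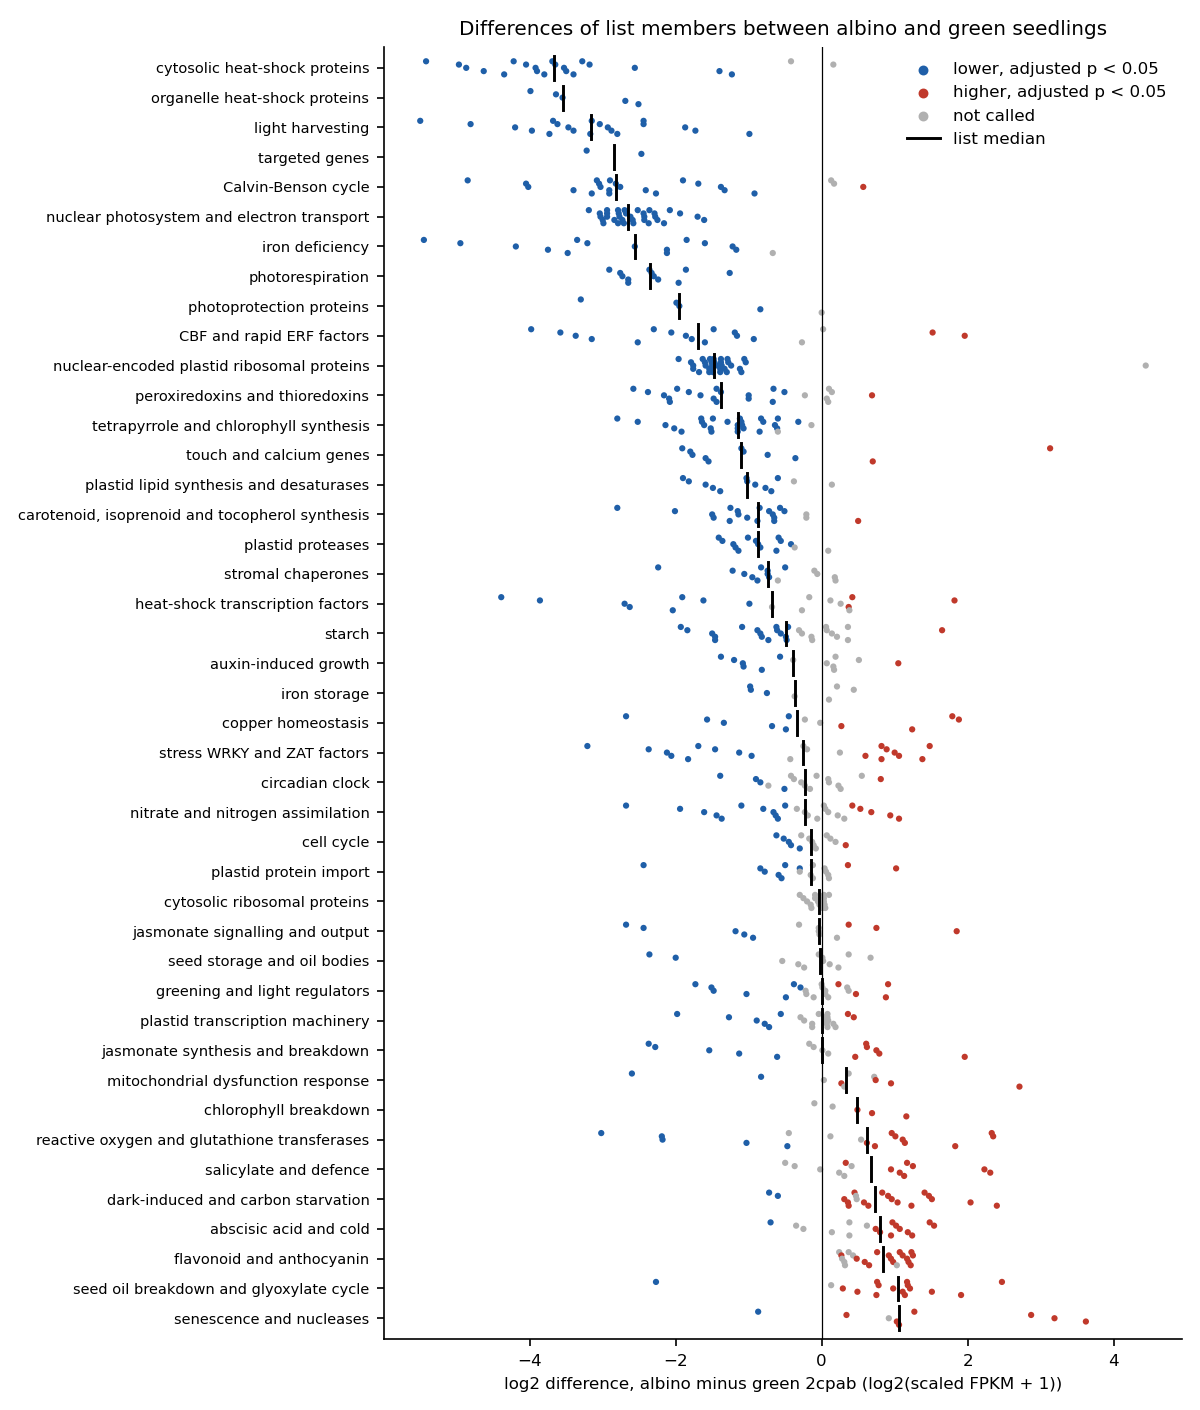
Log2 difference, albino minus green 2cpab, of each tested member of 43 gene lists (points), with the list median as a black bar. Members called lower are blue, members called higher are red and the others are grey. Photosynthesis, heat-shock protein and iron-deficiency lists lie to the left, with medians of -2.35 to -3.67, and seed-oil, flavonoid, starvation and nuclease lists lie to the right, with medians of 0.73 to 1.06.

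Genes of pigment synthesis were lower at a smaller scale. Of 28 tested genes of tetrapyrrole and chlorophyll synthesis 26 fell and 0 rose, with a median of -1.15. GUN4, an activator of magnesium chelatase, was at 64.2, 98.5 and 89.7 in green and at 12.5, 10.9 and 9.91 in albino seedlings (-2.80 ± 0.25, adjusted p = 3.63e-05). CRD1, a subunit of the cyclase that forms the fifth ring of chlorophyll, fell by 2.52 ± 0.18. CHLH, the large subunit of magnesium chelatase, fell by 2.14 ± 0.20, and CAO, which makes chlorophyll b, by 2.02 ± 0.19. In all of these the lowest green library, replicate 1 in each, was above the highest albino library.

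Of 20 genes of carotenoid, isoprenoid and tocopherol synthesis 17 fell and 1 rose, with a median of -0.87. PSY, the phytoene synthase at the entry to carotenoids, fell by 2.01 ± 0.18 and LUT5 by 1.48 ± 0.12. The beta-carotene hydroxylase BCH1 stood at 96.9, 153 and 109 in green and at 18.8, 16.6 and 12.9 in albino seedlings (-2.80 ± 0.19, adjusted p = 8.26e-06), on either side of the wild-type mean of 48.5. The member that rose, VTE4, lost its call without green replicate 2 or 3 or albino replicate 1 or 2, and was named after its value was seen. Of 5 genes of chlorophyll breakdown 3 rose and 0 fell. NYE1, which removes magnesium from chlorophyll, went from 5.49, 5.45 and 4.52 to 11.5, 12.5 and 14.3 (1.16 ± 0.10, adjusted p = 3.48e-05), and the pheophytinase PPH rose by 0.69 ± 0.09.

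Among genes of the machinery that builds plastids, those of ribosomal proteins were lower while those of the transcription machinery were mixed. Of 33 nuclear genes of plastid ribosomal proteins 32 fell and 0 rose, with a median of -1.47. The largest of these falls was 1.96, for the L34 gene AT1G29070. PRPL11 stood at 185, 244 and 258 in green and at 69.6, 66.7 and 62.5 in albino seedlings (-1.76 ± 0.15, adjusted p = 2.46e-05). The member that was not called, PRPS17, was listed at 272, 0 and 0 in green and at 247, 106 and 103 in albino libraries. A ribosomal protein at 0 in this table may be a failed estimate, so no fold is given. It was called higher without green replicate 1, and was named after its values were seen.

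Of 22 genes of the plastid transcription machinery 6 fell and 2 rose, with a median of 0.00. The falls lay in the sigma factors, which direct the plastid-encoded RNA polymerase to promoters. SIG4 was at 20.4, 25.3 and 18.9 in green and at 5.26, 4.37 and 4.43 in albino seedlings (-1.98 ± 0.21, adjusted p = 9.46e-05). SIG2 and SIG3 fell by 1.27 ± 0.14 and 0.89 ± 0.11. On unscaled values 4 fell and 11 rose, with green replicate 1 alone 3 fell and 0 rose, and without albino replicate 2 the count that rose was 1. Of 94 tested plastid-encoded codes 39 rose and 8 fell, with a median of 0.40. Poly(A) selection samples plastid transcripts only in part, and the annotation used here gives these codes no names. ATCG00065 went from 3.13, 2.0 and 1.75 to 33.6, 37.4 and 22.0 (3.27 ± 0.24, adjusted p = 1.2e-05). The count that fell moved to 13 without wild-type replicate 1, to 5 without green replicate 2 or 3 and to 3 without albino replicate 3. Plastid codes took 0.713 ± 0.168% of the summed FPKM in green and 0.874 ± 0.0623% in albino libraries (exact permutation p = 0.1). Of 13 mitochondrial codes 1 was called, higher, and with the scaling undone 4 were. The count was 0 without any one of the green libraries or albino replicate 1 or 3, and 2 without wild-type replicate 1 or albino replicate 2.

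Import, proteolysis and lipid genes of the plastid were lower in part. Of 17 import genes 7 fell and 2 rose (median -0.15). Once the scaling was undone, 3 fell and 7 rose, and the count that rose was 1 without wild-type replicate 3, green replicate 2 or 3, or any albino replicate. TIC62, a redox-sensing protein of the inner envelope and thylakoids, fell from 60.3, 77.1 and 68.8 to 13.4, 11.4 and 10.7 (-2.44 ± 0.12, adjusted p = 2.9e-06). TIC20-IV, a translocon protein, rose by 1.02 ± 0.11. Of 15 plastid proteases 13 fell and 0 rose, with a median of -0.87. FTSH5 and FTSH1, subunits of the thylakoid protease that degrades damaged photosystem II proteins, fell by 1.41 ± 0.12 and 1.36 ± 0.12. Of 13 genes of plastid lipid synthesis 11 fell and 0 rose, with a median of -1.02, led by the desaturases FAD4 (-1.90 ± 0.23) and FAD5 (-1.82 ± 0.18).

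The peroxiredoxin, thioredoxin and stromal chaperone lists are closest to the targeted genes and to the cpHSP70 of the series title. Of 23 tested peroxiredoxins and thioredoxins 17 fell and 1 rose, with a median of -1.38. TRXF1, which activates Calvin-Benson enzymes in light, stood at 129.9, 201 and 188 in green and at 30.0, 28.2 and 25.0 in albino seedlings (-2.58 ± 0.17, adjusted p = 7.87e-06). PRXQ, another thylakoid-bound peroxiredoxin, fell by 2.38 ± 0.15, CDSP32 by 2.16 ± 0.16 and TRXM4 by 2.09 ± 0.18. The member that rose was TRXY1, from 4.73, 3.13 and 4.29 to 7.03, 7.14 and 7.13 (0.69 ± 0.14, adjusted p = 0.00333, lost with green replicate 1 alone). With the scaling undone 4 rose and 16 fell.

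Of 15 stromal chaperones 10 fell and 0 rose, with a median of -0.74. On unscaled values 9 fell and 3 rose, and with green replicate 1 alone 5 fell. CLPB3, which unfolds aggregates, was at 53.2, 118 and 129 in green and at 21.2, 18 and 18 in albino seedlings (-2.24 ± 0.27, adjusted p = 0.000209). Green replicates 2 and 3 were above the others. CPHSC70-2 was at 109.7, 189 and 173 against 74.1, 68.2 and 54.4 (-1.22 ± 0.19, adjusted p = 0.000952). CPHSC70-1 was at 171, 267 and 246 against 146, 135 and 122 (-0.74 ± 0.16, adjusted p = 0.00528). The call of CPHSC70-1 was lost under TPM, with organelle genes left out, and with green replicate 1 alone. Among 5 photoprotection proteins 4 fell, of which ELIP1 overlapped between the groups and lost its call with the scaling undone (-0.46), with TPM (-0.40), with organelle genes left out, with no filter, without green replicate 2 or 3 or albino replicate 2 or 3, and with green replicate 1 alone. PSBS, the sensor of lumen acidity in thermal dissipation, fell by 3.3 ± 0.20 and the one-helix proteins OHP and OHP2 by 1.99 ± 0.21 and 1.95 ± 0.15.

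Of 21 regulators of greening and light responses 7 fell and 4 rose, with a median of 0.00. Over all tested genes 17.7% fell and 18.5% rose, so the rises were near the general share. GLK1 and GLK2 are the transcription factors that switch on chlorophyll and antenna genes. GLK1 stood at 14.2, 23.5 and 16 in green and at 5.17, 4.66 and 3.96 in albino seedlings (-1.73 ± 0.21, adjusted p = 0.000201). GLK2 was at 33.9, 53.7 and 37.5 against 14, 12.6 and 15.5 (-1.48 ± 0.21, adjusted p = 0.000514). The phytochrome-interacting factors PIF4 and PIF5 fell by 1.51 ± 0.14 and 1.03 ± 0.13. Once the scaling was undone, 4 fell and 11 rose, and these genes stayed among those that fell, with -1.40, -1.11, -1.16 and -0.65. With green replicate 1 alone 4 fell and 0 rose.

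**Figure D3:**
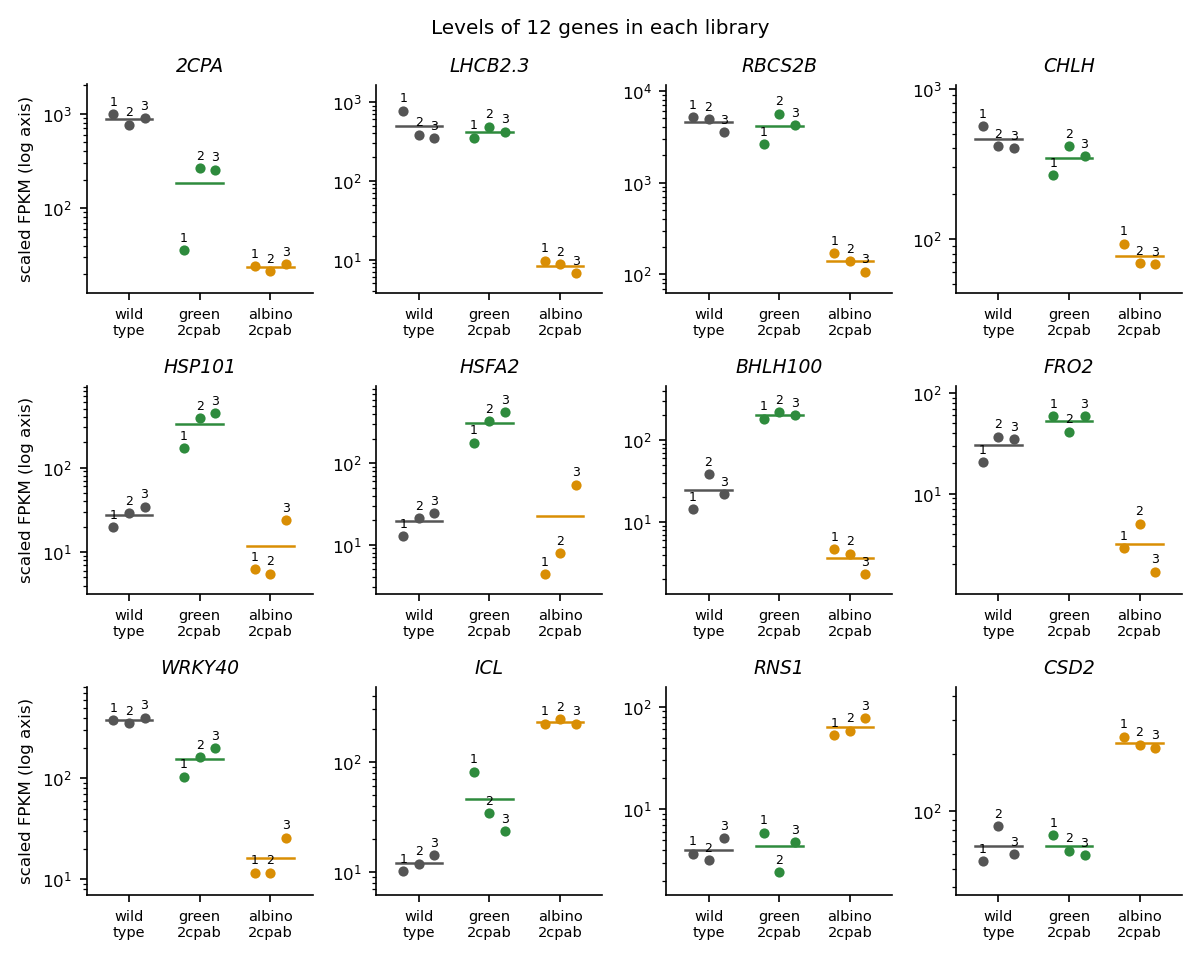
Scaled FPKM (log axis) of 12 genes in the 9 libraries. Points are libraries with their replicate number, and horizontal lines are group means. Albino libraries lie below green ones for 2CPA, LHCB2.3, RBCS2B, CHLH, HSP101, HSFA2, BHLH100, FRO2 and WRKY40 and above them for ICL, RNS1 and CSD2, with albino replicate 3 above replicates 1 and 2 in HSP101, HSFA2 and WRKY40.

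Heat-shock protein RNA was abundant in green seedlings of the mutant and much nearer to wild-type levels in albino seedlings. Heat-shock proteins are chaperones whose genes are switched on by heat-shock factors when proteins unfold. Of 22 heat-shock protein genes outside the organelles 20 fell and 0 rose between green and albino seedlings, with a median of -3.67. The medians against the wild type were 3.85 in green and -0.10 in albino seedlings. All 5 tested heat-shock proteins of organelles fell, with a median of -3.55.

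HSP101 (AT1G74310, chromosome 1, 27936508 to 27940369 on the minus strand), the cytosolic disaggregase, stood at 171, 383 and 445 in green and at 6.23, 5.53 and 23.9 in albino seedlings. The wild-type mean was 27.6. The difference between the phenotypes was -4.87 ± 0.51 (adjusted p = 8.45e-05), and the groups were far apart although albino replicate 3 was above the other albino libraries. The small heat-shock protein gene AT1G53540 went from 117, 360.2 and 347 to 2.05, 1.87 and 20.6 (-5.42 ± 0.73, adjusted p = 0.000381). BAG6, a co-chaperone, went from 115, 287 and 316 to 3.83, 3.99 and 13.1 (-4.97 ± 0.49, adjusted p = 5.58e-05). In the plastid, HSP21 went from 11.6, 34.2 and 40.4 to 0.313, 0.206 and 1.91 (-3.99 ± 0.44, adjusted p = 0.000115).

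The same libraries stood apart in every one of these genes: green replicate 1 was the lowest of its group and albino replicate 3 the highest. Relative to the wild-type mean the list median was 2.78, 4.2 and 4.33 for green replicates 1 to 3 and -0.18, -0.21 and 0.99 for the albino replicates. The summed level of the 22 genes was 3991, 7595 and 8202 in green and 1277, 1278 and 1849.8 in albino libraries, beside 1262, 1788 and 1654 in the wild type. Given green replicate 1 alone as the green group 14 of the 22 still fell.

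Of 17 heat-shock transcription factors and partners 8 fell and 3 rose, and with the scaling undone 8 fell and 6 rose. HSFA2, which prolongs the heat-shock response, stood at 178, 325 and 418 in green and at 4.37, 7.91 and 54.2 in albino seedlings (-4.39 ± 0.72, adjusted p = 0.00116, lost with green replicate 1 alone at an adjusted p of 0.064, and 6.4e-05 to 0.064 over all alternatives). HSFA7B fell by 3.86 ± 0.55 and HSFA7A by 2.70 ± 0.41. HSFA6A moved the other way, from 0.373, 0 and 0.426 to 2.21, 3.79 and 4.63, and was named after its values were seen. The 2 promoters below are shown because each holds 2 matches to GAANNTTC, in capitals with any CACGTG and GATAAG. Of all tested promoters 9.27% held GAANNTTC and 0.454% held it 2 or more times. Of the promoters of the 22 heat-shock protein genes 3 held it at least once. The HSFA7A window (chr3:19264891-19265140, plus strand) holds it at -187 and -137. The HSP17.4 window (chr3:16984868-16985117, minus strand) holds it at -99 and -18. HSP17.4 itself went from 141, 369 and 396 to 6.17, 4.66 and 33.1.
HSFA7A: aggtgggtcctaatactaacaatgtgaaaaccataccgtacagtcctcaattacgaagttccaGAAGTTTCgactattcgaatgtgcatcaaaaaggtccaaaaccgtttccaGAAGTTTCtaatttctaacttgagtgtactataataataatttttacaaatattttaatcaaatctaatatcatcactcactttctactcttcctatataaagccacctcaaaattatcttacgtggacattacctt
HSP17.4: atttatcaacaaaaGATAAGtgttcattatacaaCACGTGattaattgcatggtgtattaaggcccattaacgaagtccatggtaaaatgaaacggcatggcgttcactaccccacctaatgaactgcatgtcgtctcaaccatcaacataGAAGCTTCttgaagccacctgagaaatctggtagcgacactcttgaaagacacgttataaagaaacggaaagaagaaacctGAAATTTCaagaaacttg

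Nearly all listed genes of the iron-deficiency response were lower in albino than in green seedlings. In this response, basic helix-loop-helix factors of one subgroup switch on ferric reduction and iron uptake in the root epidermis, and the same factors respond in shoots. Of 15 tested genes 14 fell and 0 rose, with a median of -2.56. Green seedlings lay above the wild type, with a list median of 1.61, and albino seedlings below it, with a median of -0.86. Against the wild type 9 of the 15 genes were called higher in green libraries. The list median per library was 1.57, 1.76 and 1.39 in green and -0.70, -0.91 and -0.83 in albino libraries, so green replicate 1 did not stand apart here.

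BHLH100 (AT2G41240, chromosome 2, 17198037 to 17199454 on the minus strand) stood at 182, 216 and 201 in green and at 4.63, 4.11 and 2.33 in albino seedlings, with a wild-type mean of 24.7. The difference was -5.45 ± 0.30 (adjusted p = 4.08e-06). BHLH38 went from 106, 109 and 105 to 6.51, 4.18 and 4.34 (-4.19 ± 0.21, adjusted p = 2.9e-06). BHLH39 and BHLH101, named after their values were seen, fell by 3.48 ± 0.19 and 3.21 ± 0.20. With green replicate 1 alone all 15 genes of the list were called lower.

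Downstream of these factors, the ferric reductase FRO2 stood at 58.7, 41.4 and 58.6 in green and at 2.86, 5.02 and 1.68 in albino seedlings (-3.75 ± 0.30, adjusted p = 2.03e-05). CYP82C4, which hydroxylates coumarins secreted for iron uptake, went from 50.6, 53.6 and 65.2 to 0.668, 1.16 and 0.763 (-4.95 ± 0.22, adjusted p = 2.37e-06). The iron transporter IRT1 and the ubiquitin ligase BTS, named after their values were seen, fell by 3.35 ± 0.26 and 2.12 ± 0.11. The member that was not called was FIT, a regulator of uptake in roots, at 8.69, 4.05 and 7.36 against 3.61, 4.68 and 2.89 (-0.67 ± 0.25, adjusted p = 0.0616). Its groups overlapped.

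Of 7 iron-storage genes 3 fell and 0 rose, and 6 of the 7 were lower in each phenotype than in the wild type. FER3, a ferritin of plastids, was at 43.2, 55.0 and 52.5 in green and at 25.9, 27.5 and 21.6 in albino seedlings (-0.98 ± 0.15, adjusted p = 0.000941, lost with green replicate 1 alone), beside a wild-type mean of 117. With the scaling undone 2 iron-storage genes fell and 3 rose, and without albino replicate 3 the count that rose was 1. The promoters of BHLH38 (chr3:21085246-21085495, minus strand) and BHLH100 (chr2:17199455-17199704, minus strand) are shown because these genes moved together and each holds CACGTG, at -97 and -91. CACGTG was held by 4 of the 15 promoters of the list, beside 7.52% of all.
BHLH38: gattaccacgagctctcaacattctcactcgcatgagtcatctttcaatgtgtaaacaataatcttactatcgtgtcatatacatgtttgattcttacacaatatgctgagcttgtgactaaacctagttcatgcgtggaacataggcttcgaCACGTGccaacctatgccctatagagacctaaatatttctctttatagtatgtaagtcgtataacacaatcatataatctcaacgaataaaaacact
BHLH100: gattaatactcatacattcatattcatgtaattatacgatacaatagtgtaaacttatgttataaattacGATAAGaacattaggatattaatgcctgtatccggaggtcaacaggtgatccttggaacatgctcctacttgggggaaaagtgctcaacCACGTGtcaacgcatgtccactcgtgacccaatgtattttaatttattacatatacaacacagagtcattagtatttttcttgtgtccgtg

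Copper genes moved in both directions. Of 12 tested, 6 fell and 4 rose. The copper transporters COPT2 and COPT6 fell, COPT2 from 16.7, 16.6 and 12.2 to 1.79, 1.58 and 1.17 (-2.68 ± 0.15, adjusted p = 4.08e-06). Both copper/zinc superoxide dismutases rose. CSD2, of the chloroplast, went from 75.4, 62.3 and 59.0 to 246, 224 and 216 (1.79 ± 0.16, adjusted p = 3.27e-05), and CSD1, of the cytosol, from 144, 123 and 123 to 443, 463 and 538 (1.88 ± 0.23, adjusted p = 0.000232). In plants these transporters are induced, and these dismutases repressed, when copper is short. The part of copper supply in these differences was not tested. With organelle genes left out the count that fell was 3.

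**Figure D4:**
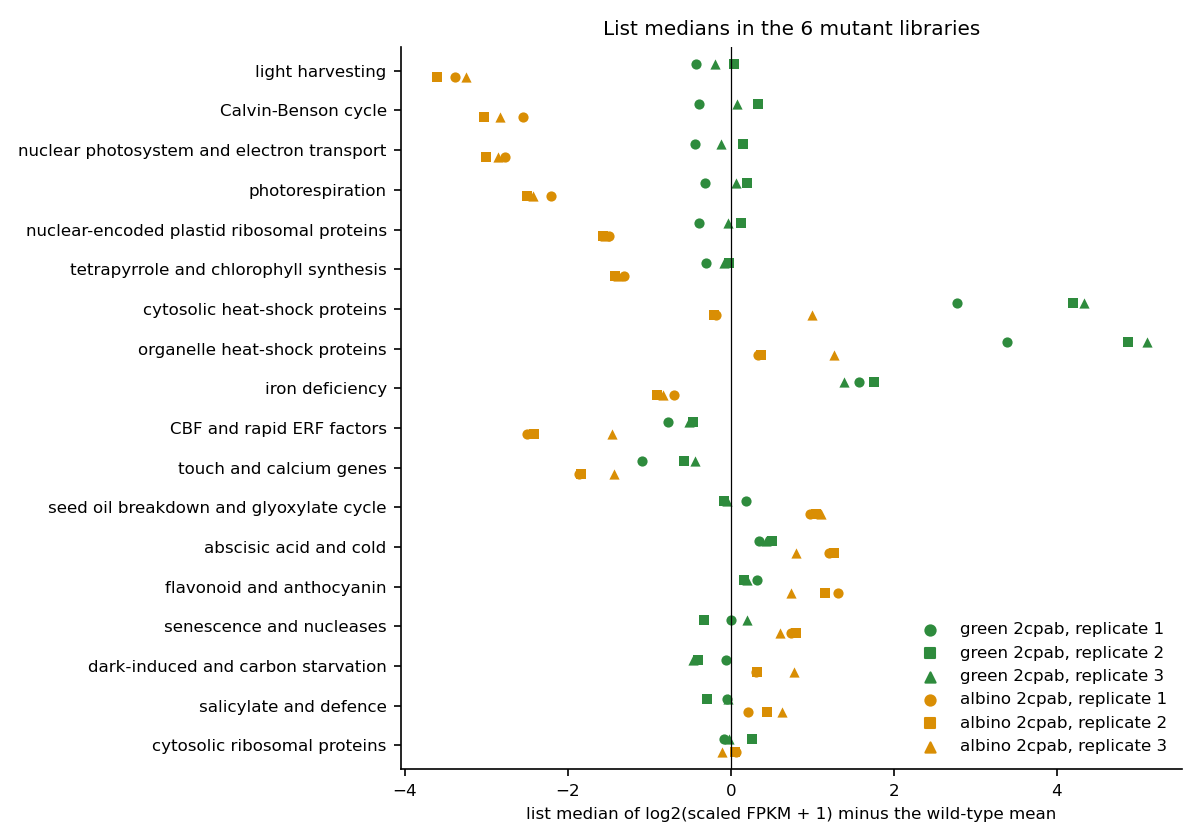
Median over the tested members of 18 gene lists of log2(scaled FPKM + 1) minus the wild-type mean, in each of the 6 mutant libraries (colour for phenotype, symbol for replicate). Light-harvesting medians lie at -3.25 to -3.61 in albino and -0.43 to 0.04 in green libraries. The cytosolic heat-shock list lies at 2.78 to 4.33 in green and -0.21 to 0.99 in albino libraries, and the iron-deficiency list on opposite sides of 0.

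Genes known to rise within minutes of touch, cold or wounding were mostly lower in albino than in green seedlings. The list median of the CBF and rapid ERF factors against the wild type was -0.49 in green and -2.22 in albino seedlings. Of 18 CBF and rapid ERF factors 14 fell and 2 rose between green and albino seedlings, with a median of -1.69. RRTF1, a redox-responsive factor, was at 64.4, 94.6 and 123 in green and at 1.89, 2.59 and 18.1 in albino seedlings (-3.98 ± 0.59, adjusted p = 0.000639), with a wild-type mean of 219. DDF1 fell by 3.58 ± 0.47 and ERF13 by 3.37 ± 0.38. The members that rose were RAP2.6 (1.96 ± 0.15) and RAP2.6L (1.52 ± 0.20), named after their values were seen. Of 11 touch and calcium genes 9 fell and 2 rose, with a median of -1.10. On unscaled values 6 of the touch and calcium genes fell, and with green replicate 1 alone 8 of the first list and 4 of the second fell.

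Among 21 stress WRKY and ZAT factors 9 fell and 8 rose. WRKY40 was at 104, 161 and 199 in green and at 11.7, 11.7 and 25.8 in albino seedlings (-3.21 ± 0.30, adjusted p = 4.42e-05). ZAT10 fell by 2.37 ± 0.33 and WRKY33 by 2.12 ± 0.22. Albino replicate 3 was the highest albino library in RRTF1, WRKY40, ZAT10 and WRKY33, as in the heat-shock genes. Of 15 genes of jasmonate synthesis and breakdown 6 rose and 5 fell, and of 13 genes of its signalling 3 rose and 5 fell. LOX4, a lipoxygenase of the pathway, fell by 2.37 ± 0.29, JAZ7, a repressor, by 2.44 ± 0.39, and the storage protein VSP2 went from 11.8, 11.3 and 13.6 to 52.3, 42.8 and 45.6 (1.85 ± 0.18). The jasmonate synthesis genes that fell numbered 3 without albino replicate 2.

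Genes of fat use and of carbon starvation were higher in albino seedlings. Of 16 genes of seed oil breakdown and the glyoxylate cycle 14 rose and 1 fell, with a median of 1.05. ICL (AT3G21720, chromosome 3, 7652487 to 7656053 on the minus strand), the isocitrate lyase of the glyoxylate cycle, stood at 81.7, 34.5 and 24 in green and at 222, 243 and 223 in albino seedlings. The wild-type mean was 12.2 and the difference 2.47 ± 0.35 (adjusted p = 0.000506). Green replicate 1 was the green library nearest to the albino ones. MLS, the malate synthase, rose by 1.91 ± 0.36 and PCK1, a gluconeogenic enzyme, by 1.51 ± 0.16. The member that fell was PMDH2, described above with photorespiration. Given green replicate 1 alone 12 rose.

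Of 20 dark-induced and starvation genes 16 rose and 2 fell, with a median of 0.73. The count that rose was 10 without green replicate 2, 9 without green replicate 3 and 4 with green replicate 1 alone. Those that fell numbered 1 without albino replicate 2. Once the scaling was undone, 18 rose and 0 fell. BCAT2, which breaks down branched-chain amino acids, went from 5.36, 2.46 and 1.61 to 15.4, 18.7 and 25.4 (2.40 ± 0.29, adjusted p = 0.000211), and SEN1 from 46.9, 26.3 and 18.1 to 98.4, 116 and 146 (2.04 ± 0.29, adjusted p = 0.000548). In both, green replicate 1 was the highest green library. Seed storage and oil-body genes were 12, of which 0 rose and 2 fell, SESA2 and SESA5, while 1 rose without wild-type replicate 2 or albino replicate 3 and 2 rose on unscaled values. SESA5 went from 5.44, 7.51 and 5.55 to 1.44, 0.618 and 0.415.

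Of 27 starch genes 16 fell and 1 rose. APL1, a subunit of the enzyme that makes ADP-glucose, fell by 1.93 ± 0.14 and the beta-amylase BAM3 by 1.84 ± 0.23. GPT2, which carries glucose-6-phosphate into plastids, rose from 9.9, 3.26 and 4.5 to 21.7, 21.3 and 15 (1.65 ± 0.32, adjusted p = 0.00291, lost with green replicate 1 alone). With the scaling undone 10 starch genes fell and 7 rose, and on the deposited scale the count that rose was 2 without green replicate 1 and 3 without albino replicate 3. Of 25 genes of nitrate and nitrogen assimilation 11 fell, 5 rose and 9 were not called, with a median of -0.23. The rises were near the 18.5% of all tested genes. The plastid glutamine synthetase GLN2 fell from 1122, 1721 and 1398 to 244, 204 and 205 (-2.68 ± 0.18, adjusted p = 7.52e-06), and the nitrate reductase NIA2 by 1.61 ± 0.15. With the scaling undone 8 fell and 8 rose, with a median of 0.16, and on the deposited scale those that rose numbered 3 without green replicate 3.

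Defence, senescence and detoxification genes were higher in albino seedlings in part. Of 14 salicylate and defence genes 8 rose and 0 fell, with a median of 0.68, and 2 fell without albino replicate 3. PBS3, which conjugates isochorismate in salicylate synthesis, was at 0.324, 0 and 0.115 in green and at 4.34, 4.82 and 4.82 in albino seedlings. ICS1, the isochorismate synthase, rose from 8.16, 5.8 and 6.75 to 14.3, 16.9 and 19.2 (1.17 ± 0.14, adjusted p = 0.000152). Of 9 senescence genes and nucleases 7 rose and 1 fell, with a median of 1.06. RNS1 (AT2G02990, chromosome 2, 873506 to 874886 on the plus strand), a secreted ribonuclease, had the largest rise that the naming rule found. It went from 5.9, 2.43 and 4.78 to 52.8, 58.5 and 77.9 (3.62 ± 0.26, adjusted p = 1.08e-05), with a wild-type mean of 4.02. ENDO2, an endonuclease, rose by 3.19 ± 0.25. SAG13 was listed at 0, 0.246 and 0.426 in green and at 6.32, 8.08 and 9.38 in albino seedlings.

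Of 17 genes of reactive oxygen and glutathione transferases 9 rose and 5 fell, with a median of 0.62. GSTF6 went from 47.7, 34.0 and 36.0 to 187, 218 and 193 (2.33 ± 0.14, adjusted p = 5.35e-06), although GSTF6 has a near-identical neighbour. GSTU4 rose by 2.35 ± 0.16. APX2, an ascorbate peroxidase under heat-shock control, was at 2.7, 12.1 and 13.7 in green and listed at 0, 0 and 0.348 in albino seedlings. Of 10 mitochondrial dysfunction genes 4 rose and 2 fell. The count that rose was 7 with the scaling undone, 8 with TPM, and 2 without green replicate 3 or without albino replicate 1. UGT74E2 went from 12.8, 3.58 and 3.19 to 47.2, 42.5 and 34.3 (2.71 ± 0.38, adjusted p = 0.000455). Of 22 flavonoid and anthocyanin genes 15 rose and 0 fell, with a median of 0.84. GSTF12, needed to move anthocyanins to the vacuole, went from 5.78, 5.12 and 5.22 to 19.2, 16.1 and 9.1 (1.25 ± 0.27, adjusted p = 0.00538). With green replicate 1 alone 4 of the 22 were called, and GSTF12 was not.

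Of 17 abscisic acid and cold genes 10 rose and 1 fell, with a median of 0.80. The dehydrin gene LTI30 went from 23.1, 14 and 16.4 to 52.5, 56.7 and 48.7 (1.54 ± 0.19, adjusted p = 0.000251), and RD29A rose by 1.48 ± 0.16. The fall lost its call with the scaling undone and without wild-type replicate 2, green replicate 2 or 3, or albino replicate 1 or 2. Among genes in no list, RD20, a caleosin induced by drought, went from 1.61, 0.981 and 1.97 to 30.4, 20.6 and 37.6 (3.58 ± 0.27, adjusted p = 1.49e-05). AIG1, a GTP-binding protein gene first found in bacterial defence, rose from 4.39, 0.926 and 2.96 to 28.3, 32.8 and 47.4 (3.40 ± 0.32). ELI3-2 stood at 0.117 to 0.184 in green and at 9.13, 9.63 and 12.8 in albino seedlings. The calmodulin-like gene CML41 rose by 3.13 ± 0.27, the ERF-type factor ERF53 by 3.21 ± 0.14 and the receptor-like kinase gene ARCK1 by 3.0 ± 0.18. The other genes that the rule took by size were AT4G35720, AT1G72600, ORP4C and AT4G28140 with rises of 3.24 to 3.34, and AT4G36700, HSP22 and AT1G07400 with falls of 4.22 to 4.36. Of these, AT1G72600 and AT1G07400 lost their call with green replicate 1 alone. AT1G10150, AT5G42092 and AT1G09927 were listed at 0 in whole or part of a group. AT1G10150 was at 0 in all 3 green libraries and at 7.25, 7.77 and 9.83 in albino seedlings.

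Growth and housekeeping lists had medians of -0.39 to -0.04. Over all tested genes 18.5% were called higher and 17.7% lower. The share that fell was above 17.7% in the cell-cycle, clock and auxin lists. None of 16 cytosolic ribosomal protein genes was called on the deposited scale, with a median of -0.04, while with the scaling undone 11 were higher, with a median of 0.35. Of 14 cell-cycle genes 5 fell and 1 rose, but with the scaling undone 0 fell and 3 rose. The rise was lost without green replicate 2 or 3 or any one of the albino replicates. Of 17 clock genes 4 fell and 1 rose, and with the scaling undone 1 fell and 6 rose. The count that fell was 2 without green replicate 2 or 3 or albino replicate 2, and the count that rose was 2 without wild-type replicate 1 or green replicate 1. Of 13 auxin and growth genes 6 fell and 1 rose, and on unscaled values 5 fell and 4 rose. On the deposited scale the rise was lost without green replicate 2 or 3 or albino replicate 2 or 3. The auxin-induced repressor IAA19 went from 8.68, 12.8 and 9.89 to 4.21, 4.41 and 4.47 (-1.08 ± 0.15, adjusted p = 0.000481).

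Markers of root hairs, and some of the endodermis, were higher in albino than in green libraries. The iron-deficiency list, which holds root uptake genes, went the other way, with a median of -2.56. The part of tissue make-up in the results above was not tested. Of 7 root-hair markers 6 rose and 0 fell, with a median of 0.88. Their summed level was 70.3, 50.1 and 45.6 in green, 94.4, 111 and 105 in albino and 52.7 to 109.7 in wild-type libraries. Of 9 endodermis markers 4 rose and 0 fell, with summed levels of 65.9 to 80.7 in green, 110.1 to 124 in albino and 70.6 to 134 in wild-type libraries. Given green replicate 1 alone 0 of either list was called. None of 3 root-cap markers was called, although 1 rose without green replicate 1 or without albino replicate 1. Of 10 stomatal markers 4 fell and 1 rose, with summed levels of 37.9 to 40.8 in green and 27.8 to 31.9 in albino libraries. The rise lost its call without green replicate 2 or 3 or albino replicate 1 or 2, and 2 rose without green replicate 1. Of 6 epidermis markers 1 rose (LTP1), of 7 phloem markers 1 rose and 3 fell, of 7 xylem markers 1 rose and of 2 tested meristem markers none was called. Over all tested genes 18.5% rose and 17.7% fell, and 1 rise among 6 or 7 markers is near that share. Without green replicate 1 the epidermis count was 2 and the meristem count 1, which was also 1 without albino replicate 3. The xylem rise, XCP1, was lost without green replicate 2 or 3 or albino replicate 2, while 5 rose without green replicate 1. With the scaling undone 7 endodermis, 6 root-hair, 3 root-cap, 3 stomatal, 4 epidermis, 3 phloem, 5 xylem and 2 meristem markers were higher, 3 stomatal markers were lower and no phloem marker fell. No root-hair marker was at 0 in any library. The root-hair and endodermis sums of the albino libraries lay within the wild-type range or just above it.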

How the data were processed

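RNA-seq of poly(A) RNA from 9 libraries was used: 3 wild-type, 3 green 2cpab and 3 albino 2cpab, grouped by their labels. The authors deposited log2 values per gene. From the values themselves these are log2(FPKM × a factor + 1), with a factor that gives every library an upper quartile of 3.6976, since 81.78% to 83.91% of values below 1 fall on a grid of 6 decimals (tolerance 0.1 of a step) once the factor is divided out. FastQC, HISAT2, StringTie and TAIR10 are named per the submitters' processing notes, with no versions. A gene was tested if its scaled FPKM reached 1 in 3 or more libraries. A mean per group was fitted over all 9 libraries with limma 3.58.1 (R 4.3.3, trended empirical Bayes) and p-values were adjusted by Benjamini-Hochberg, with calls at 0.05. Every adjusted p in the text comes from this limma fit. The fit was first run on simulated data that held no difference in scaling, so that run cannot speak to the effect of scaling. Shares were compared by exact two-sided permutation. Of the 32833 codes 32548 matched the TAIR10.1 RefSeq annotation, from which names, coordinates and promoter sequences come. Named genes were the targeted genes and both plastid HSC70 genes, the 15 largest rises and falls among called genes whose groups did not overlap and whose higher group mean was at least 5, and up to 4 called members of each list with the largest difference (up to 2 with the largest mean where none was called). Others are marked as chosen after their values were seen. The members and lists were chosen with earlier results of these data known. Alternatives were other pseudocounts, filters, scalings, fits, a replicate block and leaving out libraries. The same replicate number was not taken to mark a pair of samples, which the labels do not state. Read counts were not used, so no counting interval is given.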

Additional observations from a re-analysis of the deposited data

How the results depend on the processing

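On the deposited scale 3648 genes were higher and 3483 lower. Higher counts moved to 11859 with TPM, 11947 with organelle genes left out, 11073 with the scaling undone, 1049 without green replicates 2 and 3 and 638 where a 2-fold difference was required. Lower counts under the same settings were 1839, 1835, 1997, 1606 and 1309. Leaving out one library at a time gave 2413 to 3884 higher and 2789 to 3588 lower. The direction turned for RPL5A (0.20 with TPM and with organelle genes left out, 0.53 with quantile scaling, 0.14 with the scaling undone), RPL10A (0.36 with TPM and with organelle genes left out, 0.74 with quantile scaling, 0.30 with the scaling undone, 0.03 with green replicate 1 alone, 0.00 without green replicate 2), SWEET11 (0.05 with TPM and with organelle genes left out) and APL (0.04 in both). The cause was not tested. Same-numbered libraries of different groups correlated at -0.147 to 0.281 in their deviations from the group means, and differently numbered ones at -0.355 to 0.151. The highest values, 0.281 and 0.267, were those of green against wild-type replicates 2 and 3. The labels name no pairing, and the numbers were not taken to pair samples. A replicate block gave 3596 higher and 3516 lower. Of the 204 named genes 52 lost the call without green replicates 2 and 3, where the uncalled BRN2 and STM also turned direction. Absolute depth is unknown, and 3 libraries a group limit the precision.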
